A study of Homo sapiens with 15 samples.

Results

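Transcripts of 29 homologous recombination and Fanconi genes were followed on 15 Illumina HumanHT-12 bead arrays in MDA-MB-436, a BRCA1-deficient line derived from a human breast tumour. The members were chosen by name, and a gene counted as measured when a probe annotated to it had a detection p-value under 0.05 on at least 3 of the 15 arrays. This left 21 of the 29 genes, among 12302 genes measured in all. All cells were kept for 7 days in 1 of 5 conditions with 3 arrays each. These were 100 nM AG014699 together with LY294002 (called the combination here), LY294002 alone, 100 nM AG014699 alone, 10 nM AG014699 alone, and the solvent DMSO. AG014699 is rucaparib, an inhibitor of PARP1, which signals and helps repair DNA strand breaks. LY294002 inhibits the kinase PI3K, and its concentration is not given in the sources used here. The labels speak of triplicates and leave unsaid whether each was its own culture. The p-values therefore reflect array-to-array spread only, part or all of which may be technical. Every group comes from the same single cell line, so the DMSO cells lack functional BRCA1 as well.

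Homologous recombination repairs a double-strand break by copying the sister chromatid. The MRN complex (MRE11, RAD50, NBN) and nucleases first trim the broken ends, BRCA1, BARD1, PALB2 and BRCA2 then prepare the single strand for the search for its partner, with help from the BCDX2 and CX3 complexes, and RAD54 proteins drive strand exchange. The Fanconi core complex attaches ubiquitin to the FANCI and FANCD2 pair at crosslinked DNA and hands the lesion to the same machinery. Tumour cells that have lost BRCA1 repair breaks poorly by this route, which is the known basis of their sensitivity to PARP inhibitors.

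Of the 8 members without a measurement, BRIP1 and RAD51B had 1 probe each that was detected on 1 array, below the minimum of 3. BRCA2, RBBP8, RAD50, FANCA, FANCD2 and FANCM have no probe in the annotation used and were not analysed here. RAD52 and FANCF lay just inside the minimum, with detection on 4 arrays each. The tested probes of 18 of the 21 measured members were detected on all 15 arrays. Each array detected 18971 to 20808 of 48105 probes, and replicate arrays correlated across genes with r from 0.979 to 0.992. The mesenchymal markers VIM, CD44 and CAV1, known for this line, were detected on all 15 arrays. ESR1, the oestrogen receptor that triple-negative cells lack, was detected on 3 arrays, but FOXA1, ERBB2, EPCAM, KRT8 and KRT18 were detected on all 15. Of the markers of other cell types with a probe in the annotation used, the B cell gene CD79A was detected on 12 arrays and the endothelial gene PECAM1 on 2. In cultured cells measured in bulk, fewer cells of a kind and less RNA per cell cannot be told apart.

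Of the 21 members, 5 passed the test against DMSO in the combination, 2 at 100 nM AG014699, 1 in LY294002 and 0 at 10 nM AG014699. XRCC2, MRE11 and FANCE rose and NBN and RAD51D fell in the combination, XRCC2 rose and NBN fell at 100 nM AG014699, and XRCC2 rose in LY294002. All tests are limma fits to all genes with Benjamini-Hochberg adjustment, a change is the difference of mean log2 signals of 3 arrays against 3, and a gene was called at an adjusted p under 0.05. Among all 12302 genes, the share called was 19.9% in the combination, 21.5% at 100 nM AG014699, 1.12% in LY294002 and 2.37% at 10 nM AG014699. The share among the members was 23.8%, 9.52%, 4.76% and 0% in the same order. In single directions, 10.4% of all genes rose and 9.54% fell in the combination, and 10.7% rose and 10.8% fell at 100 nM AG014699. The members' shares at 100 nM AG014699 and in the combination are thus near or below those of all genes. At 10 nM AG014699, 3 members had an unadjusted p under 0.05, beside 1555 of all 12302 genes.

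**Figure D1:**
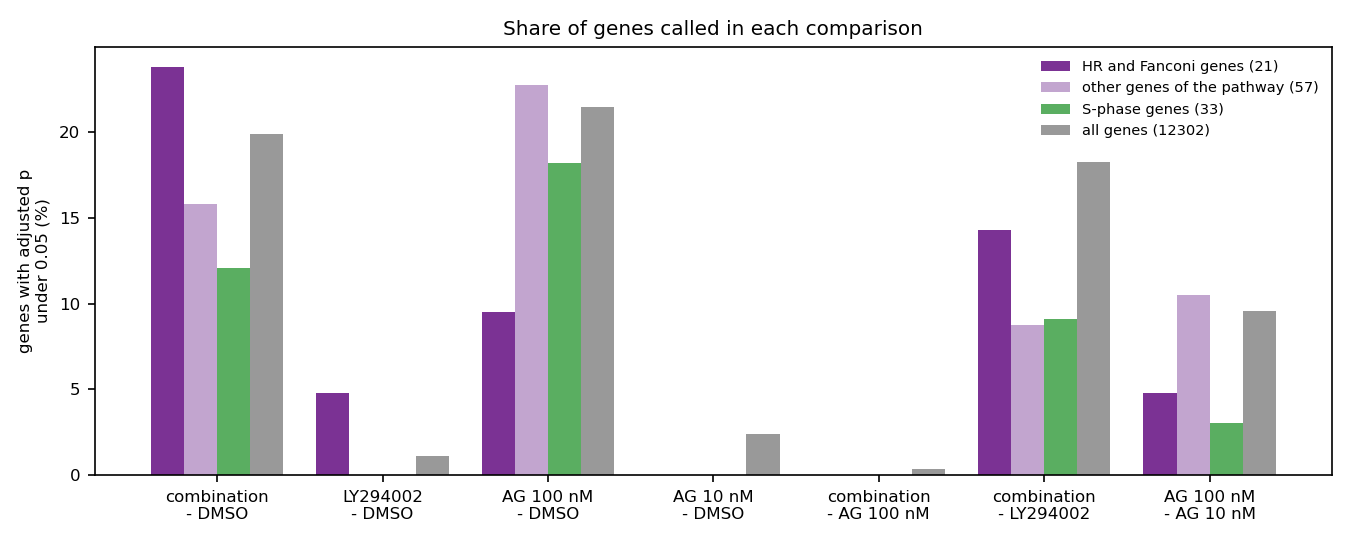
Bars give the percentage of genes with a limma adjusted p under 0.05 (y axis, from 0) in each of 7 comparisons (x axis), for the 21 measured homologous recombination (HR) and Fanconi genes, 57 other genes of the pathway, 33 S-phase genes and all 12302 genes. The members reach 23.8% in the combination against DMSO, where all genes reach 19.9%, and stay at 9.52% against 21.5% for 100 nM AG014699 (AG 100 nM) against DMSO.

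In a comparison array by array, without a test, of the combination against DMSO, 9 of 21 members had groups that did not overlap, 5 of them higher and 4 lower, beside 40.1% of all genes. The median change of the members lay at -0.02 in the combination, -0.10 in LY294002, 0.02 at 100 nM AG014699 and -0.03 at 10 nM AG014699. The median of all genes lay between -0.03 and -0.01 in these 4 comparisons. The 95% interval of the change stayed within a 2-fold difference in either direction for 18 members in the combination and 20 in LY294002. It did so for 20 members at 100 nM AG014699 and 21 at 10 nM AG014699. Of all 12302 genes, 10238, 11560, 9966 and 11450 stayed within it in the same order.

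**Figure D2:**
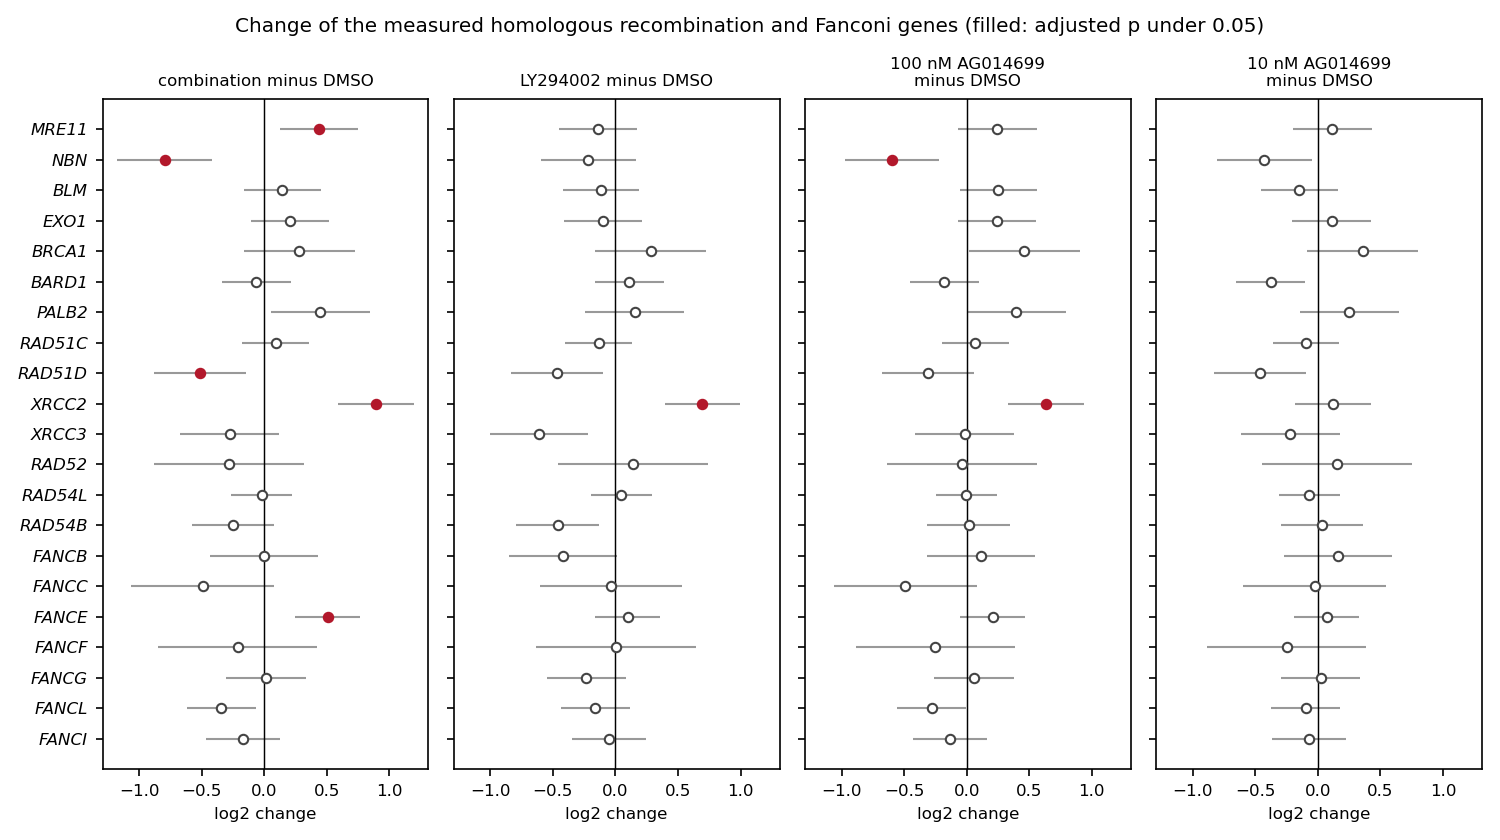
Points give the log2 change against DMSO (x axis) of each of the 21 measured members (y axis) in the combination, LY294002, 100 nM AG014699 and 10 nM AG014699, and lines give the 95% interval of the fit (3 arrays a group). Filled points passed at an adjusted p under 0.05, which are 5, 1, 2 and 0 genes from left to right. XRCC2 is filled in the first 3 panels and NBN in the first and the third.

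The start regions of the 3 members that rose in the combination are shown for the motifs of cell cycle genes, since many recombination genes are known to be transcribed most in S phase. The windows come from RefSeq (GRCh38.p14) and run from 250 bases before to 50 bases after the annotated start, 5′ to 3′ on the strand of the gene. Capitals mark matches to CCAAT or to the E2F-type octamers TTTCCCGC, TTTGGCGC, TTTCGCGC and TTTGCCGC, searched on both strands. The element TTTGAA, named CHR, was searched as well.
XRCC2, chr7:152676092-152676391, minus strand: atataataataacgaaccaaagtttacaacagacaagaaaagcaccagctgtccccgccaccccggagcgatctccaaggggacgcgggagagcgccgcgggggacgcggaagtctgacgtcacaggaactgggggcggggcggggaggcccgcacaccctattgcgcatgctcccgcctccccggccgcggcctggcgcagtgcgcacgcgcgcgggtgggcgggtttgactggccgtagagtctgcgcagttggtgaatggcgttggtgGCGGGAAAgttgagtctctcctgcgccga
MRE11, chr11:94493795-94494094, minus strand: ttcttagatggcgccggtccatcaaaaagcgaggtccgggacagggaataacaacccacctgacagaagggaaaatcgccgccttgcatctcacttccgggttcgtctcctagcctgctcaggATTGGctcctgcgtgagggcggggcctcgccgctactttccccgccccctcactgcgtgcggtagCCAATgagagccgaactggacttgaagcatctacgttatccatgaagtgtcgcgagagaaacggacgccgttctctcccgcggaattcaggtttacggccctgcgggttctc
FANCE, chr6:35452088-35452387, plus strand: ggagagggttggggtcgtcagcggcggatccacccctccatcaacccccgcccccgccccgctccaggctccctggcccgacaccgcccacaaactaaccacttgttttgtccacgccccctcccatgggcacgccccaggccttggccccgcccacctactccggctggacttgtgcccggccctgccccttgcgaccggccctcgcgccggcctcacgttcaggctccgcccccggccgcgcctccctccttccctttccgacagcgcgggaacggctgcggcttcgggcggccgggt

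The XRCC2 window held 1 E2F-type octamer on the opposite strand, at bases 22 to 29 counted from the start as base 1. The MRE11 window held 2 CCAAT matches, 1 on each strand, at bases -127 to -123 and -62 to -58. None of these letters occurred in the FANCE window. Windows were found for 18 of the 21 measured members, 25 windows in all. An E2F-type octamer occurred in 3 of the 25 (EXO1, XRCC2 and FANCC) beside 3.31% of all 35116 windows, CCAAT in 8 beside 34.6%, and TTTGAA in 1 beside 15.2%. A match is a description of the letters and not of binding.

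XRCC2 was the member that changed most. It is a subunit of the BCDX2 complex, which acts in the early steps of recombination. Its normalized log2 signal was 11.87, 11.60 and 11.85 in the combination, 11.73, 11.53 and 11.48 in LY294002, 11.37, 11.66 and 11.52 at 100 nM AG014699, 11.23, 10.93 and 10.87 at 10 nM AG014699, and 10.89, 10.73 and 11.03 in DMSO. All 9 arrays of the first 3 groups lay above every DMSO array, while the 10 nM group overlapped with DMSO. XRCC2 rose 1.85-fold in the combination (log2 change 0.89, SE 0.14, limma adjusted p = 0.000457), 1.62-fold in LY294002 (0.69, adjusted p = 0.0266) and 1.55-fold at 100 nM AG014699 (0.63, adjusted p = 0.00519). At 10 nM AG014699 its change was 0.12 (95% interval -0.18 to 0.43, adjusted p = 0.815).

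Between the 2 doses of AG014699 the XRCC2 arrays did not overlap either. XRCC2 rose by a log2 change of 0.51 at 100 nM over 10 nM (SE 0.14, adjusted p = 0.034), and it was the 1 member called there, 4.76% of the members beside 9.58% of all genes. The calls in the combination and at 100 nM AG014699 against DMSO held without any single array, whereas that in LY294002 was lost without LY294002 array 1 or 2 or DMSO array 1 or 2 (adjusted p 0.00144 to 0.217 over the alternatives, change 0.62 to 0.77). The call between doses was lost without array 2 or 3 of either dose (adjusted p 0.00625 to 0.128, change 0.44 to 0.70). A second XRCC2 probe was detected on all 15 arrays but was far dimmer, at a mean log2 signal of 5.99 beside 11.35. It gave changes of 0.27 in the combination, 0.22 in LY294002 and 0.21 at 100 nM AG014699 (SE 0.25 each) and passed in none. The XRCC2 calls rest on the brighter probe, as do the values that follow. The change by LY294002 in the presence of AG014699 was smaller than in its absence by 0.44 (interaction -0.44, 95% interval -0.87 to -0.01), which did not pass across all genes (adjusted p = 0.678).

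RAD51D, a subunit of the same BCDX2 complex, moved the other way. Its log2 signal was 5.68, 5.92 and 5.93 in the combination, 6.03, 5.91 and 5.72 in LY294002, 5.71, 6.07 and 6.35 at 100 nM AG014699, 5.95, 6.09 and 5.64 at 10 nM AG014699, and 6.27, 6.56 and 6.24 in DMSO. The combination, LY294002 and 10 nM arrays were all below every DMSO array, and the 100 nM arrays overlapped with DMSO. RAD51D fell in the combination (log2 change -0.51, SE 0.17, adjusted p = 0.0498). The changes of -0.47 in LY294002 (adjusted p = 0.239), -0.31 at 100 nM AG014699 (adjusted p = 0.223) and -0.46 at 10 nM AG014699 (adjusted p = 0.249) did not pass. The call sits at the threshold. It was lost without any 1 of the 6 arrays compared (change -0.57 to -0.41). Over all alternatives the adjusted p ran from 0.0254 to 0.174 and the change from -0.57 to -0.22, nearest 0 with no background correction and in the authors' value table. A dimmer RAD51D probe, detected on 12 arrays, gave -0.60 in the combination (SE 0.30, adjusted p = 0.223 over all probes), -0.39 in LY294002, -0.09 at 100 nM AG014699 and 0.15 at 10 nM AG014699, and passed in none. At 10 nM AG014699 its sign was opposite to that of the brighter probe.

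RAD51C and XRCC3, which together form the CX3 complex, were measured as well. RAD51C had log2 changes of -0.13 to 0.09 against DMSO in the 4 treatments by its brightest probe. Its other probes gave -0.20 to 0.28 and -0.16 to 0.21, and none of the 3 probes was called. XRCC3 lay at 7.38, 7.06 and 6.78 in LY294002, against 7.99, 7.55 and 7.51 in DMSO, without overlap. Its change of -0.61 (95% interval -1.01 to -0.22) was not called in LY294002 (adjusted p = 0.139).

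NBN, the MRN subunit that recruits the checkpoint kinase ATM to breaks, was the member that fell most. Its log2 signal was 6.90, 7.55 and 7.44 in the combination, 7.97, 7.67 and 7.99 in LY294002, 7.59, 7.22 and 7.67 at 100 nM AG014699, 7.59, 7.67 and 7.73 at 10 nM AG014699, and 7.91, 8.16 and 8.21 in DMSO. All 9 arrays with AG014699 lay below every DMSO array, and the LY294002 arrays overlapped with DMSO. NBN fell in the combination to 0.576 times the DMSO level (log2 change -0.80, SE 0.18, adjusted p = 0.00529) and at 100 nM AG014699 to 0.66 times (-0.60, adjusted p = 0.0252). At 10 nM AG014699 its change of -0.43 was not called (adjusted p = 0.316), nor was that of -0.22 in LY294002 (adjusted p = 0.644).

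The combination also differed from LY294002 alone, where NBN fell by 0.58 (SE 0.18, adjusted p = 0.0333). The call in the combination against DMSO held without any single array (change -0.92 to -0.60). That at 100 nM AG014699 was lost without its array 2 or without DMSO array 2 or 3 (adjusted p 0.00972 to 0.109, change -0.74 to -0.43), and that against LY294002 was lost without LY294002 array 1 or 3 or combination array 1 (adjusted p 0.0182 to 0.279, change -0.71 to -0.34). Combination array 1, at 6.90, was the lowest NBN value of all. A dimmer NBN probe gave -0.65 in the combination and -0.48 at 100 nM AG014699 (SE 0.29 each) and passed in neither.

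MRE11, the nuclease of the same MRN complex, rose in the combination, where NBN fell. It lay at 7.37, 7.28 and 7.05 in the combination, 6.62, 6.46 and 6.89 in LY294002, 6.99, 7.07 and 7.06 at 100 nM AG014699, 6.84, 6.84 and 7.07 at 10 nM AG014699, and 6.87, 6.96 and 6.56 in DMSO. The combination and 100 nM arrays were above every LY294002 and DMSO array, and the 10 nM arrays overlapped with both. MRE11 rose in the combination by 0.44 over DMSO (SE 0.15, adjusted p = 0.0475) and by 0.58 over LY294002 (SE 0.15, adjusted p = 0.013). Its change at 100 nM AG014699 was 0.25 (95% interval -0.07 to 0.56, adjusted p = 0.257).

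The MRE11 call against DMSO was lost without combination array 1 or 2 or DMSO array 1 or 3. It was lost as well with the replicate number as a block (adjusted p = 0.0553). Over 17 alternatives the adjusted p ran from 0.0246 to 0.218 and the change from 0.26 to 0.53, and the call was kept in 4. The losses included the fits with no background correction, on the authors' value table, with no filter and with trend and robust variance. The call over LY294002 was lost without LY294002 array 2 or combination array 1 (adjusted p 0.00276 to 0.154, change 0.33 to 0.69). The probes of MRE11 differed from one another. One dim probe was detected on all 3 arrays of the combination, all 3 at 100 nM AG014699, 2 each in LY294002 and at 10 nM AG014699, and on 0 of 3 in DMSO. It was at least 1.35-fold higher in the combination (adjusted p = 0.00889 over 23680 probes) and at least 1.36-fold higher at 100 nM AG014699 (adjusted p = 0.00791) than in DMSO. These are lower bounds, since the probe was not above background on any DMSO array and was set there to the dimmest detected signal of each array or its own, whichever was higher. Over all probes the share called was 13.1% in the combination and 14.1% at 100 nM AG014699. The remaining MRE11 probe, detected on 9 arrays, gave 0.14 and -0.13 in these comparisons (SE 0.23).

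The other genes of end resection did not pass in any comparison. EXO1, a nuclease that lengthens the single strand, had changes against DMSO between -0.10 and 0.24 in the 4 treatments by its brightest probe. A dimmer EXO1 probe, detected on all 15 arrays, gave -0.27 to 0.02, and another, detected on 4, gave -0.41 to -0.03. BLM, a helicase of long-range resection that also dissolves joint molecules, had changes between -0.15 and 0.25, and its difference of 0.40 between 100 nM and 10 nM AG014699 was not called (95% interval 0.10 to 0.71, adjusted p = 0.0923).

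**Figure D3:**
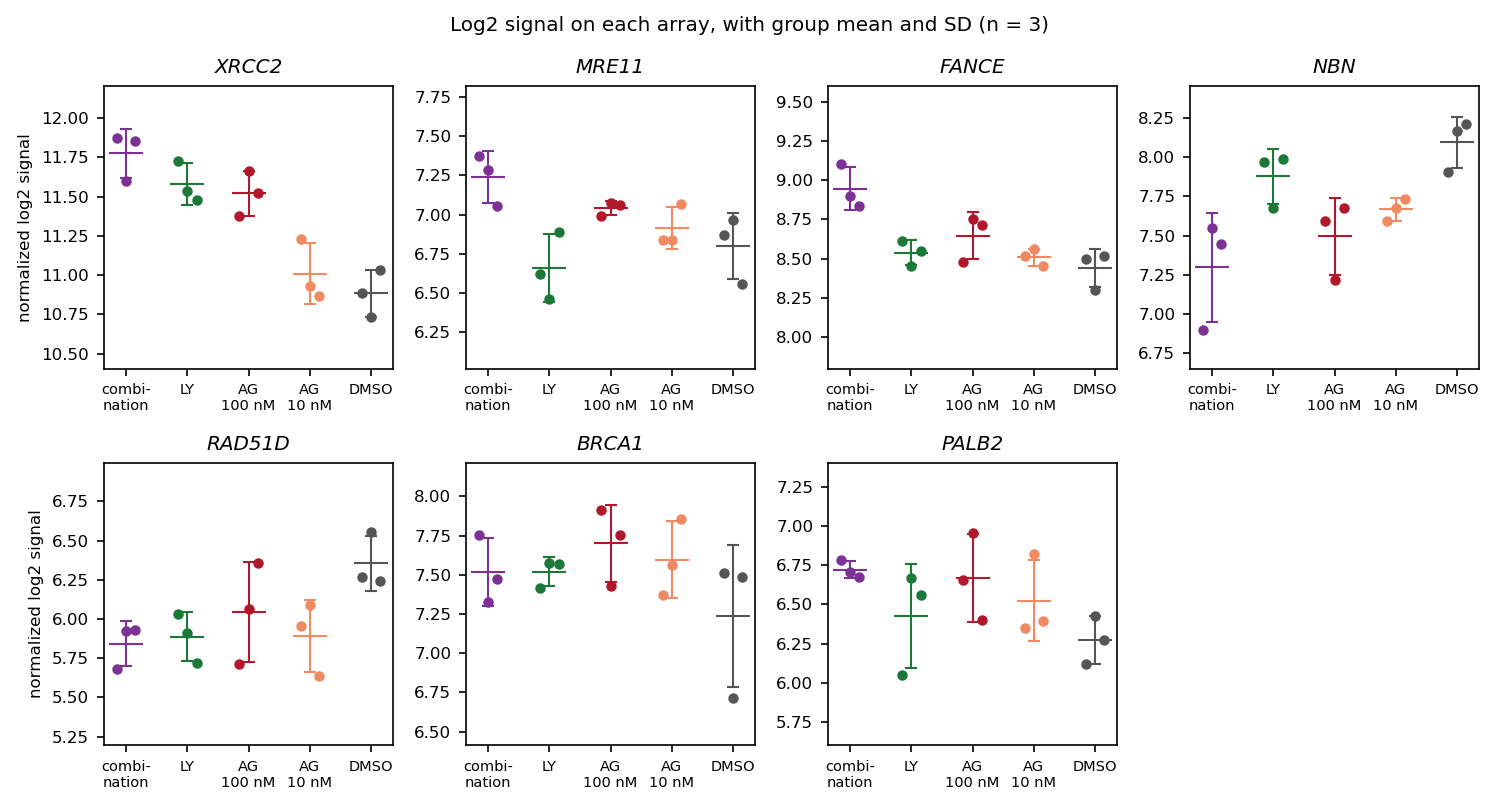
Each point is the normalized log2 signal of 1 array (y axis, a span of 1.8 log2 units in each panel) in the 5 groups (x axis, where LY stands for LY294002 and AG for AG014699), with bars for the group mean and SD (n = 3). XRCC2 lies above DMSO in the combination, LY294002 and 100 nM AG014699 groups, NBN lies below DMSO in every group with AG014699, and 1 DMSO array of BRCA1 lies apart at 6.72.

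BRCA1, the gene whose loss defines this line, was detected on all 15 arrays by both of its probes. The arrays measure transcript and not protein. Its log2 signal was 7.75, 7.33 and 7.47 in the combination, 7.41, 7.58 and 7.57 in LY294002, 7.91, 7.43 and 7.76 at 100 nM AG014699, 7.37, 7.56 and 7.86 at 10 nM AG014699, and 7.51, 6.72 and 7.49 in DMSO. Groups overlapped, and DMSO array 2 was the lowest of all 15. The change was 0.28 in the combination (adjusted p = 0.389), 0.28 in LY294002 (adjusted p = 0.6), 0.46 at 100 nM AG014699 (95% interval 0.02 to 0.91, adjusted p = 0.133) and 0.36 at 10 nM AG014699 (adjusted p = 0.532), and none was called. Without DMSO array 2 the change at 100 nM AG014699 was 0.20 (adjusted p = 0.515, in a range of 0.0864 to 0.515 over the alternatives). The second BRCA1 probe gave 0.13 there and 0.18 at 10 nM AG014699 (SE 0.17 each). It gave -0.07 in the combination and -0.31 in LY294002, opposite in sign to the brighter probe, and passed in none.

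PALB2, which links BRCA1 to BRCA2, lay at 6.78, 6.70 and 6.68 in the combination, 6.05, 6.67 and 6.56 in LY294002, 6.65, 6.96 and 6.40 at 100 nM AG014699, 6.35, 6.82 and 6.40 at 10 nM AG014699, and 6.12, 6.42 and 6.27 in DMSO. The combination arrays were all above the DMSO arrays. The change of 0.45 in the combination (SE 0.19, adjusted p = 0.103) was not called. It passed with the replicate number as a block (adjusted p = 0.0492) and with the fit limited to these 6 arrays (adjusted p = 0.0369, in a range of 0.0369 to 0.324 over the alternatives). At 100 nM AG014699 the change was 0.40 (95% interval 0.00 to 0.79, adjusted p = 0.144). BARD1, the partner of BRCA1 in its ubiquitin ligase, had a change of -0.38 at 10 nM AG014699 (95% interval -0.65 to -0.10, adjusted p = 0.183) and of -0.18 to 0.11 in the other treatments, and it was not called.

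RAD52, which anneals single strands, and RAD54L and RAD54B, translocases of strand exchange, were not called in any comparison. RAD54L had the narrowest intervals of the 3, with changes of -0.07 to 0.04 against DMSO (SE 0.11). RAD54B had a change of -0.46 in LY294002 (95% interval -0.79 to -0.13, adjusted p = 0.192). RAD52 was not above background on any array of the combination or DMSO groups, so its changes carry little information.

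In the Fanconi core complex 1 of the 6 measured genes was called in the combination against DMSO, 16.7% beside 19.9% of all genes. FANCE, the subunit that binds FANCD2, lay at 9.10, 8.90 and 8.84 in the combination, 8.61, 8.45 and 8.55 in LY294002, 8.48, 8.75 and 8.71 at 100 nM AG014699, 8.52, 8.56 and 8.45 at 10 nM AG014699, and 8.50, 8.30 and 8.52 in DMSO. The 3 combination arrays were above all 12 others. FANCE rose in the combination by 0.51 over DMSO (SE 0.12, adjusted p = 0.00882) and by 0.41 over LY294002 (SE 0.12, adjusted p = 0.0304). Its change at 100 nM AG014699 was 0.21 (95% interval -0.05 to 0.47, adjusted p = 0.247), and the difference of 0.30 between the combination and 100 nM AG014699 was not called (95% interval 0.04 to 0.56, adjusted p = 0.348).

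The FANCE call against DMSO held without any single array (change 0.43 to 0.56), and was lost when the 5 arrays numbered 1 were all left out. That over LY294002 was lost without LY294002 array 2 or 3 or combination array 1 or 2 (adjusted p 0.00758 to 0.125, change 0.33 to 0.46). FANCL, the ubiquitin ligase of the complex, had a change of -0.34 in the combination (95% interval -0.62 to -0.07, adjusted p = 0.0761). FANCB, which forms a module with FANCL, had a change of -0.42 in LY294002 (95% interval -0.85 to 0.02, adjusted p = 0.389), and its second probe gave -0.52 (SE 0.16, adjusted p = 0.204 over all probes). FANCC and FANCG, further core subunits, and FANCI, the partner of FANCD2, were not called in any comparison. FANCC had a change of -0.49 both in the combination and at 100 nM AG014699, with wide intervals (-1.06 to 0.08 each). Its probe was above background on only 1 of 3 combination arrays and 2 of 3 at 100 nM AG014699, beside 3 of 3 in DMSO. FANCF, the adaptor of the core complex, was not above background on any array at 10 nM AG014699.

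**Figure D4:**
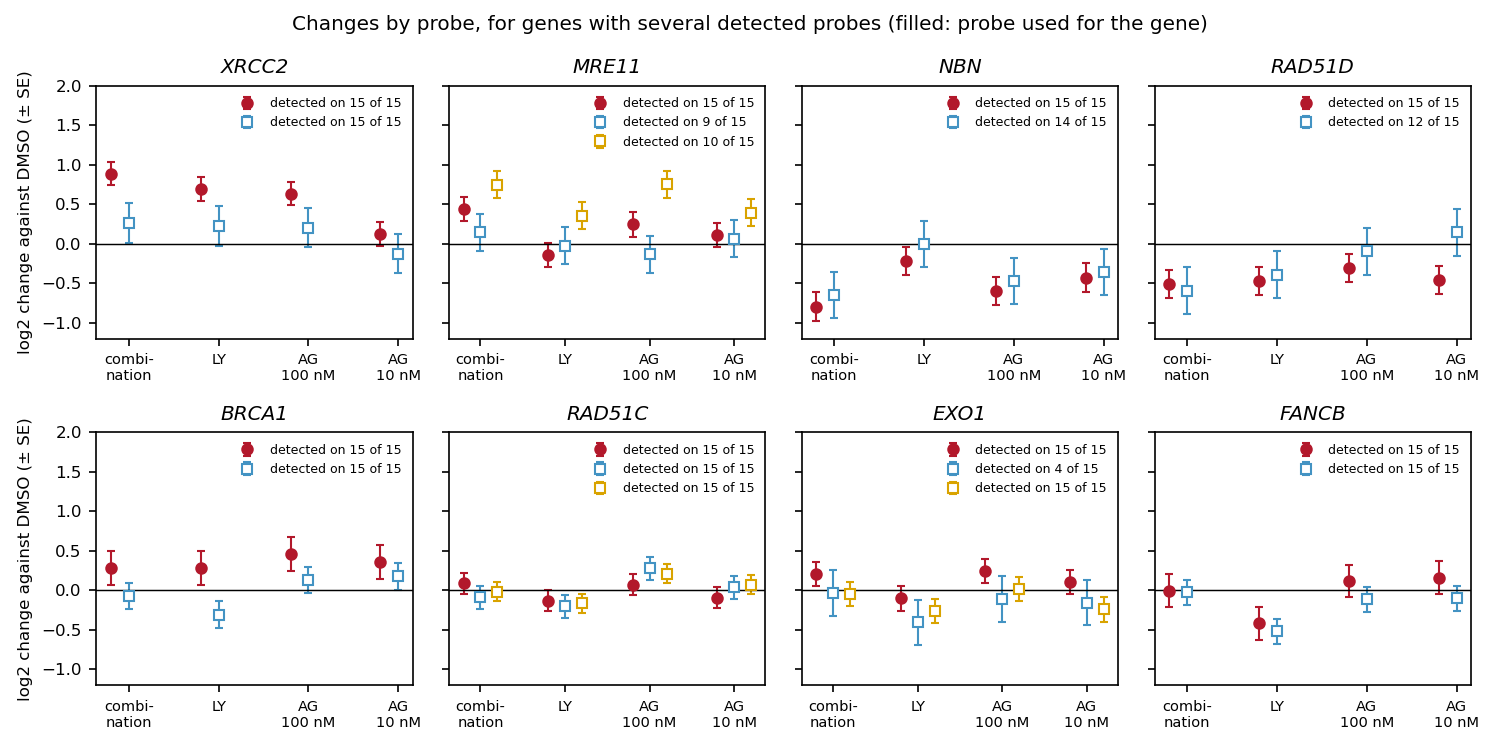
Points give the log2 change against DMSO (y axis, with the SE of the fit) of each detected probe of the 8 members with several probes, in the combination, LY294002 (LY), 100 nM AG014699 and 10 nM AG014699 (x axis). Filled points are the brightest probe, which stands for the gene, and the legends give the number of arrays on which each probe was detected. The XRCC2 probe that is not filled stays between -0.12 and 0.27, and the MRE11 probe detected on 10 arrays is plotted from its measured signals although no DMSO array detected it, so its change is bounded only from below, at 1.35-fold in the combination and 1.36-fold at 100 nM AG014699.

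The combination was also set against each drug alone. Against 100 nM AG014699, 0 of 21 members passed in limma, and 0.333% of all genes were called. There 1 member had an unadjusted p under 0.05, beside 1486 of all 12302 genes. The 95% interval stayed within 2-fold for all 21 measured members there, beside 11596 of all 12302 genes. Against LY294002, MRE11 and FANCE rose and NBN fell, 14.3% of the members beside 18.3% of all genes. In the interaction, which compares the change by LY294002 with and without AG014699, 0 members passed, and 0.00813% of all genes were called. An unadjusted p under 0.05 was found there for 1 member, beside 889 of all 12302 genes. These comparisons share arrays with those against DMSO.

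Other genes of recombination, crosslink repair and break signalling were measured for 57 of 63 listed. At 100 nM AG014699, 9 of the 57 rose and 4 fell, 22.8% beside 21.5% of all genes, with a median change of 0.02. The helicases HELQ (log2 change 1.10, SE 0.16, adjusted p = 0.000177) and WRN (0.88, SE 0.13, adjusted p = 0.000302) rose, as did MDC1 (0.77, SE 0.12, adjusted p = 0.000394), the adaptor that binds phosphorylated histone H2AX at breaks, and SFR1 (0.73, SE 0.13, adjusted p = 0.00119), an accessory factor of recombination. WDR48, a cofactor of the Fanconi deubiquitinase USP1, TOP3A, the topoisomerase that works with BLM, ABRAXAS1, the helicase cofactor HROB and the single-strand binding subunit RPA2 rose by 0.42 to 0.61. FAAP100, a Fanconi core subunit that works with FANCB and FANCL, fell by 0.67 (SE 0.17, adjusted p = 0.0103), and PARPBP, an inhibitor of recombination, the checkpoint kinase gene CHEK2 and RPA1, the large subunit that binds single strands, fell by 0.64, 0.51 and 0.38.

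In the combination 8 of the 57 rose and 1 fell, 15.8% beside 19.9% of all genes. WRN rose by 1.00, MDC1 by 0.97 and HELQ by 0.96. UIMC1 and ABRAXAS1, which hold BRCA1 at ubiquitin marks in the BRCA1-A complex, rose by 0.60 and 0.46. FAAP20, a further Fanconi core factor, fell by 0.38. Between the doses 10.5% of the 57 were called, near the 9.58% of all genes. HELQ, WRN, MDC1 and ABRAXAS1 rose at 100 nM over 10 nM AG014699, by 0.99, 0.48, 0.62 and 0.60, while FAAP100 and FAAP20 fell there by 0.66 and 0.40. Against LY294002, 5 rose in the combination and 0 fell, 8.77% beside 18.3% of all genes, and 15 had an unadjusted p under 0.05 in limma, beside 3848 of all 12302 genes. There HELQ, WRN, MDC1, UIMC1 and SFR1 rose by 0.65 to 0.94. In LY294002 and at 10 nM AG014699 against DMSO, 0 of 57 passed in limma. An unadjusted p under 0.05 was found for 4 and 3, beside 1654 and 1555 of all 12302 genes.

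Genes of the cell cycle are given beside the members with the shares over all genes, which were 19.9% called in the combination and 21.5% at 100 nM AG014699. Of 33 S-phase genes, 2 rose and 2 fell in the combination (12.1% called) and 5 rose and 1 fell at 100 nM AG014699 (18.2%), both below the share of all genes. Among them the replication helicase subunit MCM2 rose by 1.09 at 100 nM AG014699 (SE 0.26, adjusted p = 0.00765). The S-phase median was -0.02 in the combination and 0.13 at 100 nM AG014699. Of 30 mitosis genes, 0 rose and 9 fell in the combination (30% called) and 1 rose and 5 fell at 100 nM AG014699 (20%), with medians of -0.24 and -0.17. Of these mitosis genes 13 and 7 had an unadjusted p under 0.05, beside 4031 and 4214 of all 12302 genes. Of 178 small nuclear, nucleolar and similar RNAs, which mostly lack a poly(A) tail, 47 rose and 0 fell in each comparison (26.4%), beside 10.4% of all genes that rose in the combination and 10.7% at 100 nM AG014699. Of 43 replication histone genes, 25 rose and 2 fell in the combination (62.8%) and 20 rose and 1 fell at 100 nM AG014699 (48.8%). The part of the cell cycle and of RNA processing in the members' changes was not tested.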

How the data were processed

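RNA had been labelled as biotinylated cRNA and hybridized to bead arrays, per the labels. Of 48107 probes, 2 with missing signals were dropped. The signal intensity and detection p-value of the other 48105 were used as deposited. The deposit labels these intensities non-normalized, yet they matched between arrays in median, so they appear to have been normalized already. The steps are not given in the sources used here, and the normalization described below was run on top of them. Array 1 of 100 nM AG014699 held whole numbers only. The authors also deposited a table of log2 values, equal to the log2 intensity centred by probe.

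Background correction, quantile normalization and the log2 step were done with neqc (offset 16) of limma 3.58.1, in R 4.3.3. The filter asked for a detection p under 0.05 on 3 or more arrays and kept 23680 probes. Gene names came from the platform annotation, and each gene was represented by its brightest probe. Group means were estimated from 15 arrays for 12302 genes (lmFit, eBayes), with 8 comparisons, and p-values were adjusted by Benjamini-Hochberg within each. The procedure was run on simulated data with independent noise on each array. That run does not cover the correlation of same-numbered arrays described below. Array number limits the precision.

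The members, lists and tests were chosen with earlier results of these data known. Values on every array are given for members called in any comparison, for BRCA1 and PALB2, and for XRCC3 in 1 comparison, which was chosen after its values were seen. Arrays with the same number in their titles deviated together in the combination and DMSO groups, with correlations of 0.257, 0.171 and 0.156 for the 3 pairs, so the values with the number as a block are given there where they change a call. Alternatives changed the background correction, source of values, filter, probe choice, groups in the fit, block, weights, variance model and arrays. Promoter windows are from RefSeq.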

Additional observations from a re-analysis of the deposited data

How the results depend on the processing

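Of 12 calls of members, 3 held under every alternative run, those of XRCC2 in the combination and at 100 nM AG014699 and of NBN in the combination, and 0 calls changed sign. In the combination against DMSO, 3 members instead of 5 were called with no background correction, with normexp, with the authors' value table (18 measured), with no filter, with every probe tested separately and with trend and robust variance, and 2 without the arrays numbered 1. The smallest changes there were -0.22 for RAD51D and 0.26 for MRE11. In LY294002 against DMSO, 0 instead of 1 were called with every probe on its own (0.707% of all genes). The same held with only the groups compared (0.187%) and without the arrays numbered 1 (0.252%). Between the doses of AG014699, 0 instead of 1 were called with every probe on its own and with only the groups compared. For the combination against LY294002, 1 instead of 3 was called with every probe on its own and with only the groups compared, and 0 without the arrays numbered 1. The cause was not tested. Leaving out 1 array at a time gave 3 to 4 members called in the combination against DMSO (14.3% to 15.3% of all genes). In LY294002 against DMSO it gave 0 to 1 (0.52% to 0.919%). Against DMSO it gave 1 to 3 at 100 nM AG014699 (15.4% to 19.9%) and 0 at 10 nM AG014699 (1.14% to 1.41%). Between doses it gave 0 to 1 (5.41% to 8.54%). For the combination it gave 0 to 3 against LY294002 (12.6% to 16.3%) and 0 against 100 nM AG014699 (0.163% to 0.285%). In the interaction it gave 0 (at most 0.00813%).

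Same-numbered arrays correlated above 0.1 in 15 of 21 pairs (-0.0737 to 0.323) and in all 3 pairs of 1 comparison, the combination against DMSO. With the replicate number as a block, 5 members were called in the combination, 1 in LY294002, 2 at 100 nM and 0 at 10 nM AG014699 against DMSO, 1 between doses, 3 for the combination against LY294002, 0 against 100 nM AG014699 and 0 in the interaction. The block changed the call of MRE11 (adjusted p = 0.0553) and PALB2 (adjusted p = 0.0492) in the combination, and no other call of a named member.

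Precision is limited by 3 arrays a group, with a median SE of 0.15 over the members, and 8 members were not measured. Signal over background limits RAD52 and FANCF, which were detected on 4 arrays each, and FANCC, detected on 12. Second probes of XRCC2, MRE11, NBN and RAD51D are dim.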
